A study of Homo sapiens with 3 samples.

Results

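The genes described here are those whose level in the HG culture of KKU-213 lay outside that of both remaining libraries of the series. KKU-213 is an established human line of cholangiocarcinoma cells, from a tumour of bile ducts within the liver. The 3 libraries were KKU-213 in medium with 25 mM glucose (HG), the line KKU-213L5 in medium with 25 mM glucose (L5), a subline of KKU-213 known to metastasize strongly, and KKU-213 in medium with 5.6 mM glucose (NG). All were grown in DMEM with fetal bovine serum, with more than 5 passages by label, and confluent cells were harvested for strand-specific sequencing of poly-A RNA. Each group was 1 culture with 1 library, so no difference had a replicate check and no test across samples was possible; every value describes these 3 libraries.

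A gene was counted as a gene of HG alone when log2(FPKM + 1) in HG lay above both L5 and NG, or below both, by at least 1 from the nearer of them. FPKM is the number of fragments per kilobase of transcript, scaled to the mapped fragments of the library, and a size of 1 is a 2-fold difference in FPKM + 1. This size, called here the distance, was 0 where HG lay between L5 and NG, positive where HG was higher and negative where HG was lower. Genes needed status OK in all 3 gene tables and at least 1 FPKM in 1 library, and spike-in RNA was left out. By this rule 126 of 13873 genes were genes of HG alone (0.908%), out of 58892 gene IDs listed. Of them 53 were higher in HG than in L5 and NG (0.382%) and 73 were lower (0.526%). The measured levels chose these genes, so their distances are a description and not a finding. Errors after ± are counting standard errors from the width of the deposited FPKM intervals and cover counting error, not the variation among cultures.

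High glucose is known to feed glycolysis and the synthesis of fatty acids and cholesterol, and glucose-sensing transcription factors respond to its metabolites. Since L5 and HG had the same labelled glucose, the rule keeps genes that HG did not share with either the low-glucose culture of its own line or the subline grown in equal glucose. In bulk RNA, fewer cells that express a gene and less of its RNA per cell cannot be told apart.

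The counts went against the idea that HG stood apart from a pair of like libraries. The same rule gave 167 genes for L5 alone (1.2%), of which 134 (0.966%) were higher and 33 (0.238%) lower than in HG and NG. It gave 302 for NG alone (2.18%), of which 201 (1.45%) were higher and 101 (0.728%) lower than in HG and L5. HG thus had the fewest genes alone of the 3 libraries, and at a distance of 2 or more it had 22 genes, against 46 for L5 and 61 for NG. By pairs, 656 genes differed by 1 or more between HG and NG (4.73%), 378 between HG and L5 (2.72%), and 653 between L5 and NG (4.71%). HG and L5 were the pair with the fewest such genes. HG was the library with more genes lower than higher by the rule, while L5 and NG each had more higher.

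**Figure D1:**
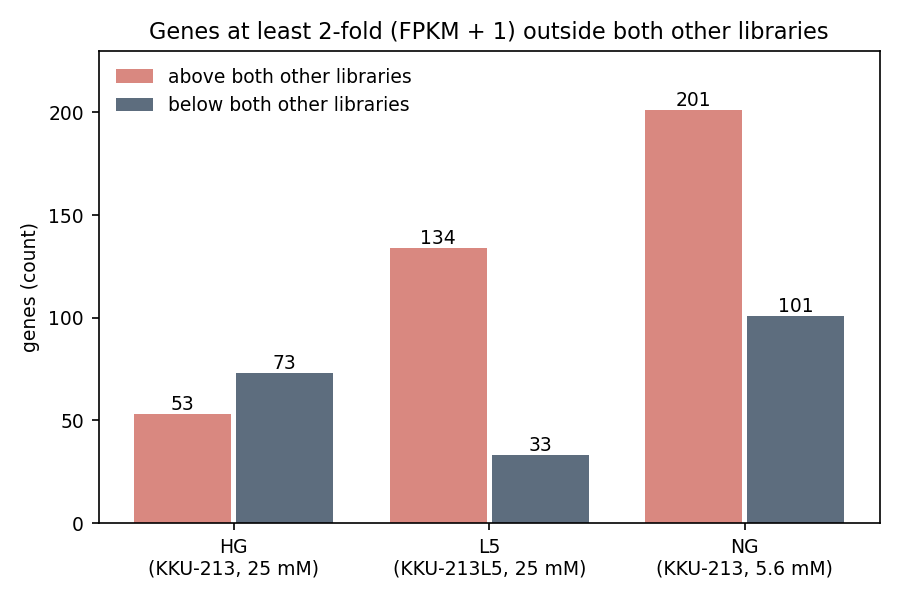
Number of genes (vertical axis) that lay at least 2-fold in FPKM + 1 above both or below both other libraries, for HG, L5 and NG. HG had 53 higher and 73 lower genes, L5 134 and 33, and NG 201 and 101.

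The libraries held 76.0 M fragments in HG, 68.7 M in L5 and 47.1 M in NG, as estimated from the coverage columns. Genes at 1 FPKM or more numbered 12884 in HG, 13041 in L5 and 13286 in NG. Bile duct markers were present at similar levels, with 10 of 19 at 1 FPKM or more in HG, 10 in L5 and 9 in NG, and summed levels of 2210, 2500 and 2425 FPKM. Of 12 hepatocyte markers 1 reached 1 FPKM in each library, and they summed to 27.9 FPKM in HG, 36.6 in L5 and 78.0 in NG. Of 12 fibroblast markers also 1 did in each, and they summed to 3.67 FPKM in HG, 3.36 in L5 and 8.49 in NG. The 14 markers of leukocytes and endothelium included 2 at 1 FPKM or more in HG, 2 in L5 and 1 in NG, and they summed to 17.7, 19.1 and 14.9 FPKM. Spike-in RNA took 33206 FPKM in HG, 46009 in L5 and 26331 in NG. With FPKM scaled to it, the median log2 difference over all genes was 0.34 for HG minus L5, against 0.00 as deposited, and -0.52 for HG minus NG, against -0.09 as deposited.

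What kinds of gene these were differed by direction. Of the 53 higher genes 28 were protein-coding, and 21 had a longest isoform under 300 nt, most of them small nuclear and nucleolar RNAs and processed pseudogenes. Of the 73 lower genes 50 were protein-coding and 7 were that short. Among all 13873 genes 11215 were protein-coding, or 80.8%, and 272 were that short, or 1.96%. The 17 higher genes listed at 0 in both L5 and NG included the small RNA genes RNU6-22 and SNORA7B, at 107 and 14.6 FPKM in HG. FPKM of such short genes is poorly estimated. The deposited interval of HG lay apart from those of both L5 and NG in 30 of the 53 higher and 65 of the 73 lower genes. Over all genes it did so in 3696 of 13873. The rule chose members for lying far outside both libraries, so a larger share among them is built in. With isoforms of 300 nt or more required, 32 higher (0.235%) and 66 lower genes (0.485%) were left of 13601. Of these, 28 of the higher (87.5%) and 50 of the lower genes (75.8%) were protein-coding, so the order of the directions reversed without the short genes. In 112 of the 126 genes L5 and NG lay within 1 of each other on the log2 scale, a share of 88.9%, against 95.3% of all genes.

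Calcium-binding S100 proteins had the highest distances among genes of 300 nt or more. S100A8 and S100A9 form calprotectin, a metal-chelating protein abundant in neutrophils and in inflamed or squamous epithelium, and S100A7, psoriasin, is a protein of stressed squamous epithelium. S100A8 (ENSG00000143546, GRCh37 chromosome 1, 153362508 to 153363664) was listed at 162 FPKM in HG, 2.07 in L5 and 3.46 in NG, a distance of 5.19 ± 0.17. S100A9 (ENSG00000163220, 153330330 to 153333503) was listed at 257 FPKM in HG, 5.01 in L5 and 13.0 in NG, a distance of 4.20 ± 0.13. Its deposited intervals left out these values in all 3 libraries, at 158 to 170 FPKM in HG, 2.73 to 4.25 in L5 and 6.76 to 10.1 in NG, yet stood as far apart. S100A7 (ENSG00000143556, 153430220 to 153433177) was listed at 43.6 FPKM in HG, 0.600 in L5 and 0.104 in NG, a distance of 4.80 ± 0.18. S100A12, calgranulin C, lies between S100A9 and S100A8 and was lower in level, at 2.12 FPKM in HG, 0.144 in L5 and 0.385 in NG (1.17 ± 0.22). For all 4 HG was the highest library, as the rule required, and its deposited interval lay apart from those of L5 and NG. The HG interval of S100A12, at 0.953 to 1.80 FPKM, left out its listed value of 2.12. The leukocyte marker PTPRC was listed at 0.00640 FPKM in HG, 0.0233 in L5 and 0.0244 in NG. PTPRC is 1 of the 14 markers of leukocytes and endothelium given above, of which 2 reached 1 FPKM in HG. That list summed to 17.7 FPKM in HG, 19.1 in L5 and 14.9 in NG. A source of the S100 RNA in leukocytes was not tested. S100A8 and S100A9 were lower in L5 than in NG, and S100A7 was higher in L5 than in NG.

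The 4 genes are neighbours, with starts 15854, 16324 and 67712 nt apart along the chromosome. In the stretch of chromosome 1 from 151955391 to 153604513, which holds the S100 cluster, 19 genes were measured, and these 4 were the members, with none lower. Other abundant S100 genes of the stretch went different ways. S100A10, a partner of annexin A2, was listed at 292 FPKM in HG, 509 in L5 and 546 in NG (-0.80 ± 0.03). S100A6 stood at 725 FPKM in HG, 989 in L5 and 1078 in NG, and S100A11 at 636, 858 and 843 FPKM in the same order of libraries. S100A16 lay above both, at 185 FPKM in HG, 153 in L5 and 141 in NG (0.27 ± 0.03). S100A14 was listed at 115 FPKM in HG, 160 in L5 and 1.46 in NG, so HG lay between the others and near L5. S100A4 also lay near L5, at 19.7 FPKM in HG, 17.2 in L5 and 69.9 in NG. Of 14 measured genes in the S100 list 5 lay above both L5 and NG and 5 below both. Each share was 35.7%, against 26.0% of all genes above both and 36.3% below both.

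**Figure D2:**
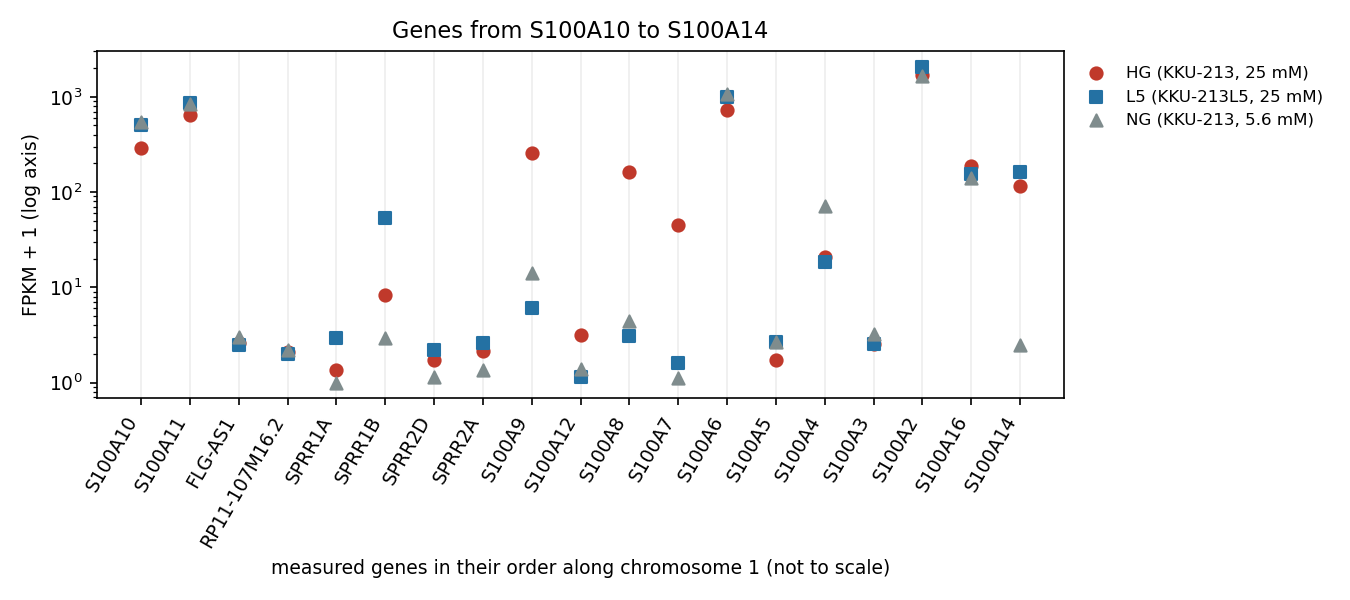
FPKM + 1 on a log axis for the 19 measured genes of the S100 stretch, in their order along chromosome 1, in HG, L5 and NG. S100A9, S100A12, S100A8 and S100A7 in the middle were higher in HG by the rule, S100A12 at a low level. The squamous envelope gene SPRR1B was highest in L5 at 52.0 FPKM, with 7.39 in HG and 1.97 in NG.

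The promoter windows of the 3 highest S100 genes are shown because these neighbours were high together in HG. They run from 250 bases before to 50 bases after the start site in RefSeq, build GRCh38.p14, and capitals mark the motif TATAAA of the TATA box. The windows are chr1:153460602-153460901 on the minus strand for S100A7, chr1:153391024-153391323 on the minus strand for S100A8, and chr1:153357604-153357903 on the plus strand for S100A9.
S100A7: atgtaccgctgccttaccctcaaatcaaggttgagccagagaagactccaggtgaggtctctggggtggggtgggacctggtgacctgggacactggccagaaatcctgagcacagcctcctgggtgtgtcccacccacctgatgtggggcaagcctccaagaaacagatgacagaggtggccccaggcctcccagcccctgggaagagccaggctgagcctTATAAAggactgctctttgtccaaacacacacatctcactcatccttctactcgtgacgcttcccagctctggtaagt
S100A8: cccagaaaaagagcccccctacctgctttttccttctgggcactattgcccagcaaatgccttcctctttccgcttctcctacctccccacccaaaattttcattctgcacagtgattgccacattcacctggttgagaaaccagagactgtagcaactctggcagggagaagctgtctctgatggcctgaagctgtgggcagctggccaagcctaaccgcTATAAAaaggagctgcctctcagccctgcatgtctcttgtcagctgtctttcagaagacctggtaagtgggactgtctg
S100A9: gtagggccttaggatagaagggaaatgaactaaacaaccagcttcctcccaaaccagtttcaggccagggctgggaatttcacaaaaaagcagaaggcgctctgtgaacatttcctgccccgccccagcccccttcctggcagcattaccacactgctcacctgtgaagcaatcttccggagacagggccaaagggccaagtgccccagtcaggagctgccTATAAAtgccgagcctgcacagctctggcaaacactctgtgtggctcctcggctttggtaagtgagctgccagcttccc
The motif began 28 bases before the start site in S100A7 and 29 bases before it in S100A8 and S100A9. For S100A8, RefSeq lists 3 windows, and the first listed one that holds the motif is printed. S100A12 had a match as well, so all 4 S100 members had the motif in at least 1 window. In the first listed window of each gene, searched on both strands, 3 of these 4 had it, against 11.95% of 27305 genes. Of the members with a promoter window and 300 nt or more, 5 of 24 higher genes and 4 of 40 lower genes had it in their first listed window. A match in letters is a description and does not show that the site was used.

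Another group among the higher genes, though not the next by distance, held the lipid synthesis gene SCD and genes of the response to low oxygen. SCD (ENSG00000099194, GRCh37 chromosome 10, 102106881 to 102124591), which makes monounsaturated fatty acids, was listed at 204 FPKM in HG, 52.9 in L5 and 85.0 in NG, a distance of 1.25 ± 0.02. It was the abundant member of this group, and L5, in the same glucose, was the lowest of the 3. The overlapping AL139819.1, whose status was not OK, had 38.4, 8.70 and 14.97 FPKM in HG, L5 and NG, so the split of reads there is uncertain. The window of SCD (chr10:100346983-100347282 on GRCh38.p14, plus strand) is shown with capitals at the motif CCAAT of the CCAAT box, found at a pair of places.
SCD: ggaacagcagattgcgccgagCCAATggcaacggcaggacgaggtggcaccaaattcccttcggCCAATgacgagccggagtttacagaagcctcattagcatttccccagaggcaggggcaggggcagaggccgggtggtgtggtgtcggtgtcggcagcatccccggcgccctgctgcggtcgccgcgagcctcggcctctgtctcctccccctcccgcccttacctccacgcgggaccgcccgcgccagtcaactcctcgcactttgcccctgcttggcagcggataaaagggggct
CCAAT stood in 35.7% of all windows, in 8 of 24 higher genes and 15 of 40 lower genes.

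DDIT4, an inhibitor of mTORC1 induced by stress and low oxygen, was listed at 107 FPKM in HG, 46.7 in L5 and 49.3 in NG (1.10 ± 0.03). EGLN3, an oxygen-sensing prolyl hydroxylase, was listed at 13.1 FPKM in HG, 5.94 in L5 and 5.45 in NG (1.02 ± 0.08). C10orf10, also called DEPP and a FOXO target, stood at 11.4 FPKM in HG, 4.40 in L5 and 3.87 in NG (1.20 ± 0.08). In each of these 3 genes L5 and NG were nearly equal and HG stood above both. With spike-in scaling, SCD, C10orf10 and DDIT4 stayed above both but missed the size, at 0.76, 0.94 and 0.62.

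The remaining higher genes had varied roles and mostly low levels. The cancer-testis genes MAGEA12, MAGEA10 and CSAG1, germ-line genes of the X chromosome that tumours can switch on, were higher in HG and lie near each other. MAGEA12 was listed at 11.4 FPKM in HG, 3.02 in L5 and 0.0602 in NG (1.63 ± 0.08), and CSAG1 at 9.36, 3.51 and 0.221 FPKM in HG, L5 and NG (1.20 ± 0.14). MAGEA10 stood at 3.55 FPKM in HG, 0.594 in L5 and 0.213 in NG (1.51 ± 0.13). In these 3 genes L5 lay between HG and NG. MAGEA genes are close copies that may share reads, which makes the values of single copies uncertain. Of 18 measured genes of the cancer-testis list, 3 were higher and 1 was lower in HG than in both L5 and NG by the rule. At any distance, 4 of the 18 lay above both (22.2%, against 26.0% of all genes) and 6 below both (33.3%, against 36.3%).

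C1S, a protease that starts the complement cascade, was listed at 8.05 FPKM in HG, 0.897 in L5 and 2.06 in NG (1.56 ± 0.13). Its partner C1R just missed the size, at 10.7 FPKM in HG, 2.91 in L5 and 5.28 in NG (0.89). VAV3, an exchange factor for small GTPases, stood at 7.14 FPKM in HG, 1.92 in L5 and 0.960 in NG (1.48 ± 0.10). BCAM, a receptor for laminin, stood at 8.92 FPKM in HG, 2.62 in L5 and 0.821 in NG (1.46 ± 0.09). MAN1A1, a Golgi mannosidase of N-glycan trimming, stood at 6.62 FPKM in HG, 1.84 in L5 and 1.43 in NG (1.43 ± 0.05). C1S, VAV3, BCAM and MAN1A1 were below 10 FPKM in each library, so a pseudocount of 1 shrinks their distances.

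CA2, a carbonic anhydrase that hydrates carbon dioxide, was listed at 13.2 FPKM in HG, 5.14 in L5 and 0.102 in NG (1.21 ± 0.08). For CA2 the 25 mM libraries were both above NG, and HG was the higher of them. GRAMD3 was listed at 9.04 FPKM in HG, 3.72 in L5 and 3.54 in NG (1.09 ± 0.08, or 0.75 with spike-in scaling). The creatine transporter SLC6A8, at 28.7 FPKM in HG, 13.6 in L5 and 12.5 in NG, and DUSP9, a phosphatase of MAP kinases, at 4.13, 1.33 and 1.55 FPKM in HG, L5 and NG, are neighbours on the X chromosome. Both lay just past the size, at 1.02 ± 0.07 and 1.01 ± 0.10.

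**Figure D3:**
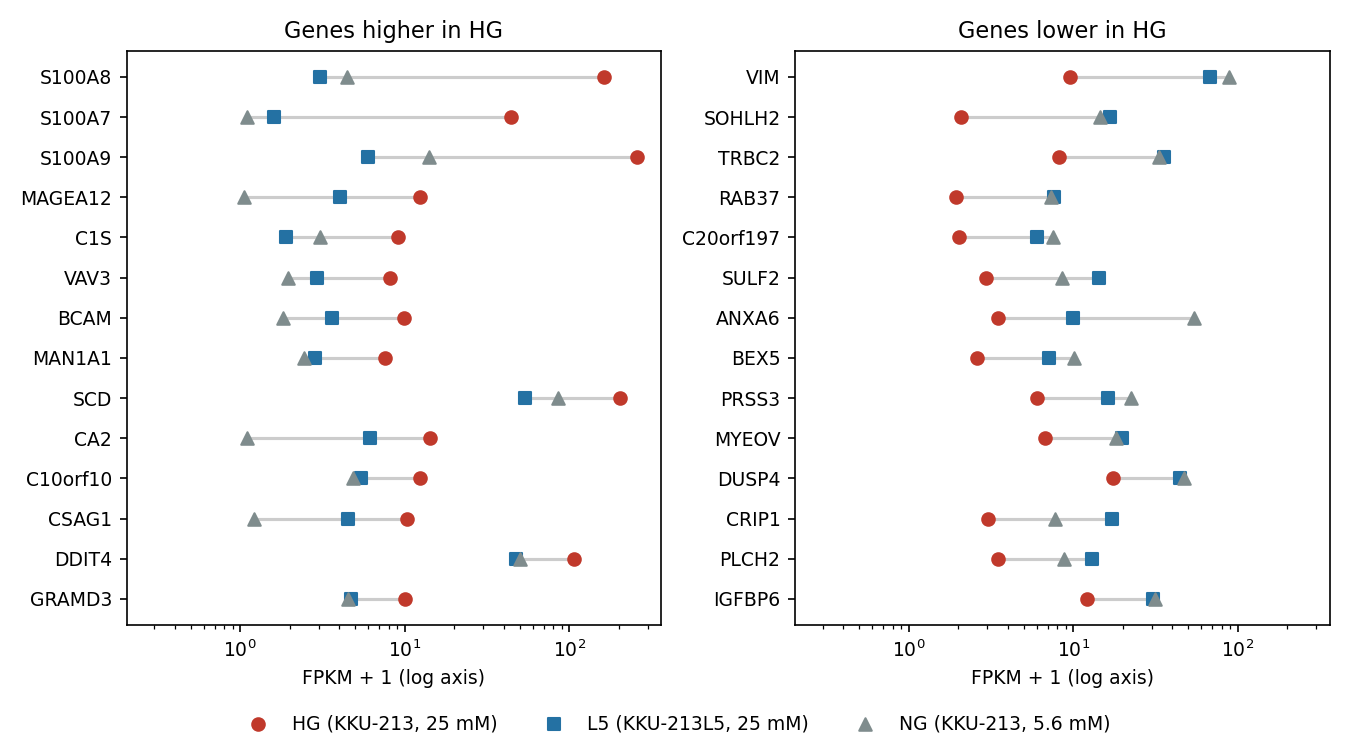
FPKM + 1 on a log axis for 14 higher and 14 lower genes of HG alone with the largest distances that are named here, in HG, L5 and NG, sorted by distance from the top. Circles for HG lie to the right of both other libraries on the left panel and to the left of both on the right panel, and VIM at 8.55 FPKM in HG had the largest negative distance of those shown.

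Among the lower genes VIM stood first of those named. VIM (ENSG00000026025, GRCh37 chromosome 10, 17270258 to 17279592) encodes vimentin, the intermediate filament of mesenchymal cells. It was listed at 8.55 FPKM in HG, 67.0 in L5 and 87.4 in NG, a distance of -2.83 ± 0.06. VIM-AS1, the antisense gene beside it, was listed at 0.433 FPKM in HG, 1.87 in L5 and 3.24 in NG (-1.002 ± 0.12). Both strands thus gave their lowest value in HG, and L5 was the nearer library for both. Of 7 measured genes of the mesenchymal list, 4 lay below both L5 and NG in HG and 0 above both, with a median distance of -0.15. The share below both was 57.1% of these few genes, against 36.3% of all genes. With median, upper quartile and TPM scaling the median of the list was -0.06, -0.07 and -0.05. TGFBI, a matrix protein induced by TGF-beta, stood at 25.0 FPKM in HG, 40.5 in L5 and 78.6 in NG (-0.67 ± 0.04). SNAI2, a transcription factor that represses epithelial genes, stood at 30.7, 55.1 and 38.3 FPKM in HG, L5 and NG (-0.31 ± 0.04). VIM was the 1 gene of this list past the size.

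SOHLH2, a transcription factor of germ cells, was listed at 1.09 FPKM in HG, 15.6 in L5 and 13.5 in NG (-2.80 ± 0.09). TRBC2, a constant segment of the T cell receptor, was listed at 7.17 FPKM in HG, 34.5 in L5 and 32.4 in NG (-2.03 ± 0.11). The deposited intervals of TRBC2 left out these values in all 3 libraries. The T cell marker CD3E was listed at 0 FPKM in HG, 0.0201 in L5 and 0.0408 in NG, and CD3D at 0.801 FPKM in HG, 0.501 in L5 and 0.124 in NG. RAB37, a GTPase of secretion, stood at 0.932 FPKM in HG, 6.60 in L5 and 6.35 in NG (-1.93 ± 0.09). In SOHLH2, TRBC2 and RAB37 L5 and NG lay close together and HG was the low library.

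Chemokines and proteases formed a second part of the lower genes. CCL20, which attracts lymphocytes and dendritic cells through CCR6, was listed at 7.37 FPKM in HG, 19.8 in L5 and 21.8 in NG (-1.32 ± 0.08). CXCL3, which attracts neutrophils, was listed at 1.90 FPKM in HG, 7.58 in L5 and 5.05 in NG (-1.06 ± 0.12). Both chemokines are textbook targets of NF-kB, and their promoter windows are shown for that reason, with capitals at matches to the NF-kB motif.
CCL20: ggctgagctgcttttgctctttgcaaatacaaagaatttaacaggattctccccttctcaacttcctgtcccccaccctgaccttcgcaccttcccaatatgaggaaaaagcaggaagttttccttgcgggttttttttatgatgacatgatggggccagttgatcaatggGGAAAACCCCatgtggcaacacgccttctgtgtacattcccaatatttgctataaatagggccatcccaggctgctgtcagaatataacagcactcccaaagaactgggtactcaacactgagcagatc
CXCL3: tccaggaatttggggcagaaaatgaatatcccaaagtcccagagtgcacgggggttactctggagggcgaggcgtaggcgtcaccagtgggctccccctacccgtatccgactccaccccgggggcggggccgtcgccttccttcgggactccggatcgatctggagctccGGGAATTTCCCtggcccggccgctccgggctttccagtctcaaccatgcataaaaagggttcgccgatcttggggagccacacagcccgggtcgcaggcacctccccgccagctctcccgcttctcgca
The window of CCL20 is chr2:227813592-227813891 on the plus strand and that of CXCL3 chr4:74038640-74038939 on the minus strand, both on GRCh38.p14 from RefSeq. The match began 79 bases before the start site in both genes, and CXCL3 had an overlapping match 1 base further on. The NF-kB motif stood in 10.8% of all windows, in 4 of 24 higher and 7 of 40 lower genes. The AP-1 motif TGANTCA stood in 7.76% of all windows, in 2 of 24 higher and 7 of 40 lower genes. Different motifs were counted separately and may overlap.

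Other genes of the NF-kB and cytokine list were below both L5 and NG in HG without reaching the size. CSF2, the growth factor GM-CSF, stood at 10.2 FPKM in HG, 20.6 in L5 and 25.4 in NG (-0.95 ± 0.10), and CXCL2 at 12.6, 26.9 and 23.9 FPKM in HG, L5 and NG (-0.87 ± 0.07). IL8 was listed at 25.9 FPKM in HG, 82.4 in L5 and 41.5 in NG (-0.66 ± 0.06). Of 22 measured genes in the list 14 lay below both L5 and NG, 2 above both, and 2 passed the size, both lower. The share below both was 63.6%, against 36.3% of all genes. Not all cytokines were low in HG. IL1B stood at 164 FPKM in HG, 230 in L5 and 60.5 in NG, so that HG lay between, and ICAM1, an adhesion molecule, was above both at 9.87 FPKM in HG, 5.55 in L5 and 7.52 in NG. Scaled to spike-in RNA, 8 of the 22 lay below both and 1 above, a share below of 36.4% against 13.1% of all genes.

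The lysosomal proteases CTSL1 and CTSS were lower in HG. CTSL1 was listed at 26.5 FPKM in HG, 71.9 in L5 and 65.9 in NG (-1.28 ± 0.05), and CTSS at 5.02, 15.02 and 13.6 FPKM in HG, L5 and NG (-1.28 ± 0.12). CTSS was led by another isoform in HG than in L5 and NG, but narrowly, at 40.4% of its FPKM in HG against 39.6%. Other matrix genes were lower without reaching the size, among them the urokinase PLAU at 138 FPKM in HG, 264 in L5 and 260 in NG (-0.91 ± 0.02). The protease inhibitor TIMP2 stood at 14.3 FPKM in HG, 29.3 in L5 and 35.5 in NG (-0.98 ± 0.04), and ITGA6, an integrin that binds laminin, at 85.1, 166 and 155 FPKM in HG, L5 and NG (-0.86 ± 0.02). The median distance of 24 measured matrix and protease genes was -0.28, against 0 over all genes. Of the 24, 15 lay below both L5 and NG (62.5%, against 36.3% of all genes) and 2 above both. In 14 of those 15 the interval of HG lay apart from the others, as it did in 1564 of the 5035 genes below both over all genes. The 2 above both were the metalloproteinases MMP10, at 2.25 FPKM in HG, 0.724 in L5 and 0.289 in NG, and MMP3, at 1.22, 0.301 and 0.0844 FPKM. With spike-in scaling 13 of the 24 lay below both (54.2%, against 13.1% of all genes) and 3 above, and the median was -0.30.

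Among genes of MAP kinase signalling DUSP4 and ETS1 were lower members. DUSP4, a phosphatase that turns MAP kinases off, was listed at 16.5 FPKM in HG, 43.8 in L5 and 45.9 in NG (-1.35 ± 0.03). FOSL1, a subunit of AP-1, stood at 75.0 FPKM in HG, 124 in L5 and 133 in NG (-0.71 ± 0.03), and KLF4 at 28.6, 51.5 and 45.2 FPKM in HG, L5 and NG (-0.64 ± 0.03). Of 27 measured immediate early genes 15 lay below both L5 and NG, 3 above both and 9 between. The share below both was 55.6%, against 36.3% of all genes, and that above both 11.1%, against 26.0%. The median distance was -0.14, and -0.06, -0.07 and -0.05 with median, upper quartile and TPM scaling. Scaled to spike-in RNA, 17 lay below both (63.0%, against 13.1% of all genes). DUSP4 was the 1 past the size, which it missed at -0.95 with spike-in scaling. MYC, above both, stood at 153 FPKM in HG, 140 in L5 and 103 in NG. ETS1, a transcription factor downstream of MAP kinases, was listed at 26.5 FPKM in HG, 57.3 in L5 and 82.0 in NG (-1.08 ± 0.04).

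IFI44, an interferon-stimulated gene, was listed at 14.8 FPKM in HG, 35.5 in L5 and 59.7 in NG (-1.21 ± 0.07). OAS1, an antiviral enzyme, lay just outside the size at 1.59 FPKM in HG, 4.08 in L5 and 5.32 in NG (-0.97), and ISG20 stood at 3.62, 7.34 and 9.72 FPKM in HG, L5 and NG (-0.85 ± 0.12). Of 30 measured interferon genes 19 lay below both L5 and NG (63.3%, against 36.3% of all genes) and 4 above both. The median distance of the list was -0.20. IFITM3, a membrane protein that blocks viral entry, was above both at 117 FPKM in HG, 83.3 in L5 and 104 in NG. Under spike-in scaling 10 of the 30 lay below both (33.3%, against 13.1% of all genes) and 1 above both, and the median was 0.

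Among the other lower genes were secreted and surface proteins. AGR2, an isomerase of secretory cells that forms disulfide bonds, was listed at 20.8 FPKM in HG, 206 in L5 and 44.3 in NG (-1.05 ± 0.08), so it was lowest in HG and highest in L5. SULF2, which trims sulfate from heparan chains, stood at 1.94 FPKM in HG, 13.4 in L5 and 7.59 in NG (-1.55 ± 0.12). IGFBP6, which binds IGF2, stood at 11.1 FPKM in HG, 29.7 in L5 and 30.6 in NG (-1.34 ± 0.09, or -0.94 with spike-in scaling). PRSS3, a trypsinogen, stood at 5.05 FPKM in HG, 15.4 in L5 and 21.5 in NG (-1.44 ± 0.11). BMP4, a ligand of the TGF-beta family, stood at 1.88 FPKM in HG, 5.34 in L5 and 11.7 in NG (-1.14 ± 0.12).

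ANXA6, an annexin that binds membranes with calcium, was listed at 2.50 FPKM in HG, 8.94 in L5 and 53.5 in NG (-1.51 ± 0.09), so L5 stood between HG and NG. CRIP1, a small LIM protein, was listed at 2.04 FPKM in HG, 16.2 in L5 and 6.78 in NG (-1.35 ± 0.21). PLCH2, a phospholipase C, stood at 2.47 FPKM in HG, 12.04 in L5 and 7.85 in NG (-1.35 ± 0.06). MYEOV stood at 5.73 FPKM in HG, 18.7 in L5 and 17.2 in NG (-1.44 ± 0.19), BEX5 at 1.60, 6.12 and 9.09 FPKM (-1.46 ± 0.14) and the non-coding C20orf197 at 1.03, 5.05 and 6.55 FPKM (-1.58 ± 0.09), each in HG, L5 and NG. Among abundant lower genes were GSTP1, which conjugates glutathione, at 51.6 FPKM in HG, 163 in L5 and 114 in NG (-1.13 ± 0.05), and EMP1, a membrane protein of epithelia, at 43.6, 96.2 and 93.6 FPKM in HG, L5 and NG (-1.08 ± 0.03). TGM2, a transglutaminase that crosslinks proteins, stood at 9.74 FPKM in HG, 22.3 in L5 and 25.9 in NG (-1.12 ± 0.04).

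Genes of cholesterol synthesis were mostly a little higher in HG. Of 26 measured genes of cholesterol synthesis and uptake, 20 lay above both L5 and NG in HG and 2 below both, a share of 76.9% against 26.0% of all genes, with a median distance of 0.29. In 14 of the 20 the interval of HG lay apart from both others, as it did in 1224 of the 3601 genes above both over all genes. ACAT2, which makes acetoacetyl-CoA, stood at 67.9 FPKM in HG, 36.6 in L5 and 37.5 in NG (0.84 ± 0.04). The sterol regulator SREBF2 stood at 23.3 FPKM in HG, 14.1 in L5 and 14.4 in NG (0.66 ± 0.04). HMGCS1 was equal in HG and NG, at 74.2 FPKM in HG, 44.9 in L5 and 74.2 in NG. By the rule 1 of the 26 genes was a gene of HG alone.

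Fatty acid synthesis was more mixed. Of its 17 measured genes 9 lay above both L5 and NG (52.9%, against 26.0% of all genes). Below both lay 4 (23.5%, against 36.3%), and the median was 0.06. SREBF1, which drives this pathway, stood at 19.7 FPKM in HG, 10.5 in L5 and 12.3 in NG (0.64 ± 0.11), and FASN, the fatty acid synthase, at 42.3, 20.4 and 28.6 FPKM in HG, L5 and NG (0.55 ± 0.07). FADS1, a desaturase of polyunsaturated fatty acids, was slightly below both at 18.2 FPKM in HG, 18.8 in L5 and 23.6 in NG. SCD, described above, was the 1 gene of the list past the size.

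In glycolysis 17 of 23 measured genes lay above both L5 and NG and 1 below both. The share above was 73.9%, against 26.0% of all genes, with a median of 0.15 and 0 genes past the size. LDHA, which makes lactate, stood at 1634 FPKM in HG, 1299 in L5 and 1372 in NG (0.25 ± 0.01). PDK1, which holds pyruvate back from the mitochondria, stood at 8.21 FPKM in HG, 3.83 in L5 and 4.32 in NG (0.79 ± 0.11), and SLC16A1, a lactate carrier, at 175, 121 and 101 FPKM in HG, L5 and NG (0.53 ± 0.02). The glucose carrier SLC2A1 lay between the others, at 46.7 FPKM in HG, 42.3 in L5 and 50.4 in NG. Of 18 measured hypoxia genes 13 lay above both (72.2%, against 26.0% of all genes) and 1 below both. The median was 0.22, and DDIT4 and EGLN3 were the 2 past the size. HIF1A, the oxygen-regulated factor itself, stood at 165 FPKM in HG, 128 in L5 and 105 in NG (0.37 ± 0.02), and ADM, adrenomedullin, at 55.6, 35.0 and 30.2 FPKM in HG, L5 and NG (0.65 ± 0.06).

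These counts depended on the scaling. Scaled to spike-in RNA, 6 of the 26 cholesterol genes, 4 of the 17 fatty acid genes, 5 of the 23 glycolysis genes and 9 of the 18 hypoxia genes lay above both L5 and NG. These shares were 23.1%, 23.5%, 21.7% and 50%, against 8.22% of all genes under that scaling. The medians were then 0 for the first 3 lists and 0.02 for hypoxia. With median, upper quartile and TPM scaling 21 cholesterol genes lay above both in each. As deposited, of 9 measured glucose-sensing genes 1 lay above both (11.1%, against 26.0% of all genes). Below both lay 3 (33.3%, against 36.3%), and the median was 0.

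**Figure D4:**
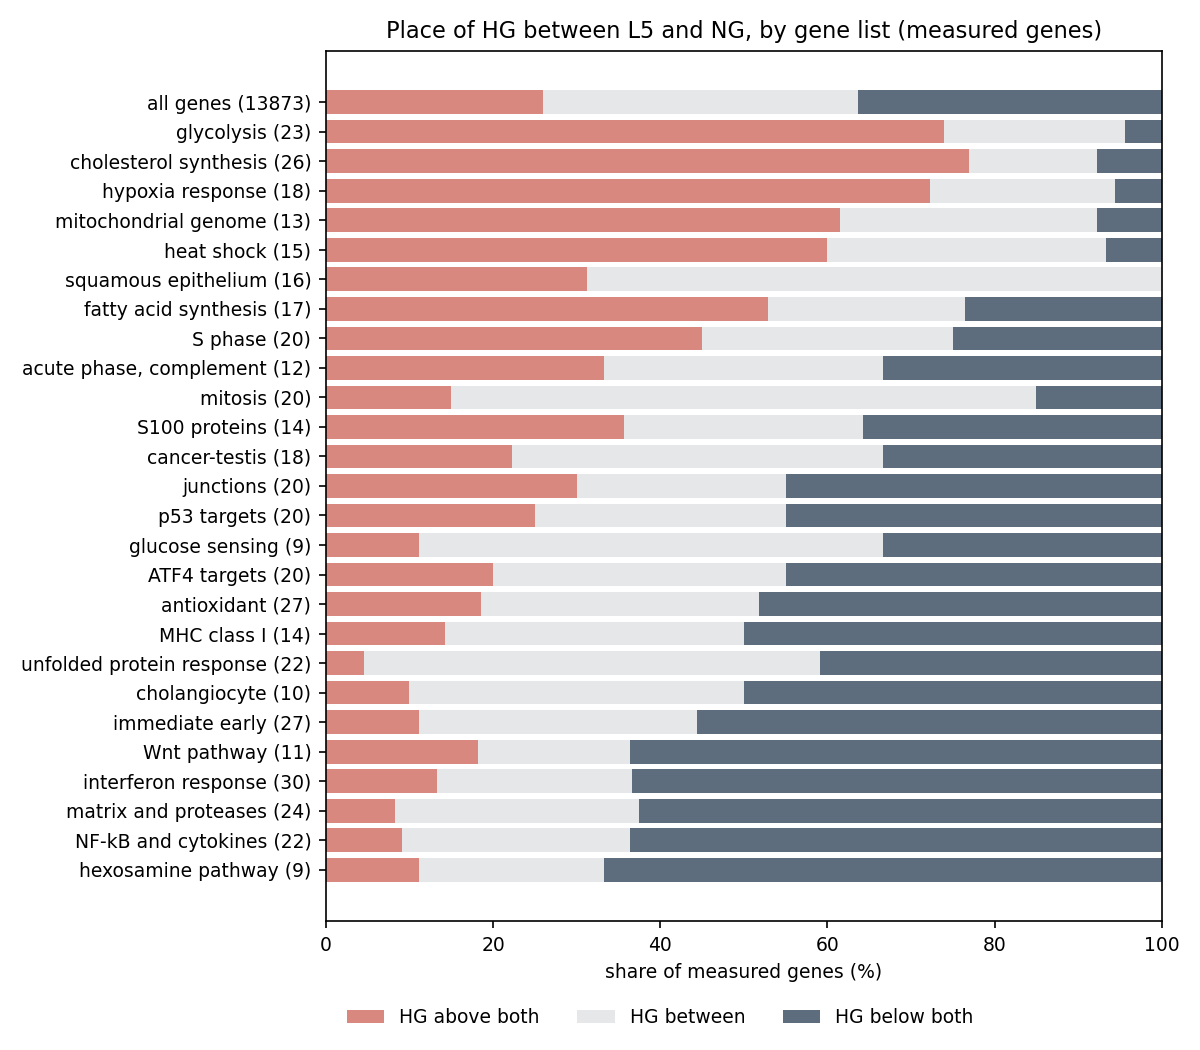
Share of the measured genes in each list (horizontal axis, percent; number of genes in brackets) for which HG lay above both L5 and NG, between them, or below both, as deposited. Glycolysis, cholesterol synthesis and the hypoxia response had over 70% of genes above both, and matrix, NF-kB and interferon genes over 60% below both; with spike-in scaling the shares above were smaller, as was that of all genes.

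As deposited, most squamous genes did not share the pattern of HG alone. They belong to the tissue where S100A7, S100A8 and S100A9 are best known. Of 16 measured squamous genes HG lay between L5 and NG in 11, above both in 5 and below both in 0. None passed the size. The share above both was 31.25%, against 26.0% of all genes, and 36.3% of all genes lay below both. Scaled to spike-in RNA, 7 of 15 squamous genes lay above both (46.7%, against 8.22% of all genes) and 0 below both. KRT5, a basal keratin, stood at 43.3 FPKM in HG, 270 in L5 and 1.71 in NG. KRT17 stood at 237 FPKM in HG, 301 in L5 and 68.0 in NG, and TP63, the master factor of squamous epithelium, at 79.3, 73.6 and 30.6 FPKM in HG, L5 and NG. The summed level of the 27 squamous markers was 746 FPKM in HG, 1115 in L5 and 379 in NG, so HG stood between while S100A7, S100A8 and S100A9 were high in HG alone.

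Some members were neighbours. Among members of 300 nt or more, 8 pairs of neighbours had starts within 1 Mb of each other, and in all 8 both genes went the same way. They were the 3 pairs of the S100 run, VIM-AS1 with VIM, FAM102A with the pseudogene TMSB4XP4, MAGEA10 with MAGEA12, MAGEA12 with CSAG1, and DUSP9 with SLC6A8. These pairs are not independent, since the S100 run gave 3 of them and MAGEA12 recurs. No share over all neighbouring genes is given here, so the count is a description. Most members of that length were lower (66, against 32 higher), which makes like directions more common. Chromosome 1, with 10.1% of all genes, held 18 of the 126 members, 13 higher and 5 lower, so 1.28% of its genes were members, against 0.908% over all. The X chromosome, with 3.60% of all genes, held 10, 5 in each direction. Of 48 members with isoforms enough to compare, 39 had the same leading isoform in HG, L5 and NG, while in CTSS, MYEOV and TPRN the leading isoform of HG differed from that of both others.

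Some members rest on a short isoform. TPRN, ZNF888, RP11-782C8.5 and an alternate-contig copy of PHF1 lost their size when isoforms under 300 nt were left out. In TPRN an isoform of 130 nt was listed at 8.64 FPKM in HG and at 0 in L5 and NG, while its longer isoforms summed to 4.38 FPKM in HG, 4.81 in L5 and 5.75 in NG. In ZNF888 an isoform of 141 nt carried 5.67 FPKM in L5 and 11.5 in NG.

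The size of 1 cuts a continuous range. Among genes open to naming, those just inside it on the higher side were SLC6A8, EGLN3 and TPRN, at 1.02, 1.02 and 1.05, and those just outside were MTUS1 at 0.99, DAG1 at 0.91 and C1R at 0.89. On the lower side H1F0 at -1.005, SLC9A3R2 at -1.02 and TLE4 at -1.03 lay just inside, and TIMP2, TGFBR2 and OAS1 lay just outside at -0.98, -0.98 and -0.97. TGFBR2, a receptor for TGF-beta, stood at 17.4 FPKM in HG, 35.2 in L5 and 45.5 in NG. Of the 126 members 22 belonged to 1 of the 33 gene lists and 104 to none.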

How the data were processed

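Per the labels, poly-A RNA was made into strand-specific libraries and sequenced as paired reads of 100 bp, with 1 library for each of HG, L5 and NG. The submitters' processing notes name BWA, TopHat and Cufflinks and the build GRCh37; versions and settings are not given in the sources used here. FPKM values per gene and per isoform, with the lower and upper bounds of their intervals, were used as deposited by the authors. The coverage values are the signal per isoform that the authors' tables list, per the file headers, and are not normalized for depth; the ratio of coverage to FPKM, taking 200 bases read from each fragment, put a number on the fragments sequenced.

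Gene IDs on several rows (112) were summed, and 28 IDs listed in the L5 table alone, 92 spike-ins and genes with a status other than OK were left out. Distances used log2(FPKM + 1), which understates differences of low genes. Counting errors were taken from the interval width, rescaled to the listed FPKM. Deposited intervals held the listed FPKM for 86.0% of genes in HG, 87.0% in L5 and 87.7% in NG. In 5 of the 30 genes with the largest distances they did not in 1 or more libraries: S100A9, SCD, SOHLH2, TRBC2 and ANXA6.

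Genes were named by rule: members with at least 5 FPKM in 1 library, an HG interval apart from both others and an approved-style symbol, with the 15 highest and 15 lowest in full, list members with their values, and 3 genes on each side of the size. RNU6-22, SNORA7B, the genes of the position paragraph, S100A12, VIM-AS1, MAGEA10, DUSP9 and the short-isoform genes fall outside it in part and were chosen after their values were seen. A few named by it are left out and not reported here. The members and the 33 lists were chosen with earlier results of these data known. No entry was found under the symbols CD24 and PECAM1. Promoter windows came from RefSeq on GRCh38.p14 and gene types from a GENCODE annotation, and no coordinates were converted. The steps were tested on simulated data. Python 3.11.15, pandas 2.3.3, numpy 2.4.6 and matplotlib 3.10.9 were used.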

Additional observations from a re-analysis of the deposited data

How the results depend on the processing

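The counts for HG alone moved most with the handling of low values. As deposited, 53 genes were higher and 73 lower in HG, with 167 for L5 alone and 302 for NG alone. With a pseudocount of 0.1 these were 83, 241, 312 and 671, and with a pseudocount of 5 they were 13, 20, 52 and 103. With at least 5 FPKM in 1 library 24 were higher and 52 lower in HG, with 95 for L5 and 185 for NG. With isoforms of 300 nt or more 32 were higher and 66 lower, with separate intervals 30 and 65, and with isoform sums over isoforms of 300 nt or more, chosen after seeing the data, 29 and 65, with 109 for L5 alone. The higher share of the HG genes, 42.1% as deposited, was 25.6% with a pseudocount of 0.1, 31.6% with 5 FPKM or with separate intervals, 32.7% with isoforms of 300 nt or more and 30.9% with those isoform sums. In every setting run HG had fewer genes alone than NG, and fewer than L5 except with a pseudocount of 0.1, where it had 324 against 312. Spike-in scaling gave 51 higher and 49 lower genes (51.0% higher), of which 41 and 36 were also called as deposited, and NG alone had 1251. Lists with a median above 0.1 numbered 4 and those below -0.1 numbered 7; spike-in scaling left 0 and 4, a pseudocount of 5 or no filter on FPKM left 3 below, and median, upper quartile and TPM scaling left 4 below. Of the 30 genes with the largest distances 16 were under 1 with a pseudocount of 5 and 6 with spike-in scaling, and 10 kept a size of 1 in all settings that gave a value; no value changed sign. The cause of these changes was not tested beyond the filters' own construction. No paired analysis was possible because each group had 1 library, and for the same reason no replicate could be left out. Depth limits genes of low FPKM most in NG, the library with the fewest fragments.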

Other observations

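Some gene groups not described so far differed from all genes, of which 26.0% lay above both L5 and NG in HG and 36.3% below both. Of 13 measured mitochondrially encoded genes HG lay above both L5 and NG in 8 and below both in 1, with MT-CO1 at 7277 FPKM in HG, 6537 in L5 and 5703 in NG, and of 15 heat shock genes 9 lay above both and 1 below. HSPA8, a constitutive chaperone, stood at 2087 FPKM in HG, 1605 in L5 and 1729 in NG. Scaled to spike-in RNA, 0 of either list lay above both, against 8.22% of all genes. Of 9 genes of the hexosamine pathway 6 lay below both and 1 above, with a median distance of -0.03. GFPT2, a rate-limiting enzyme of that pathway, stood at 0.299 FPKM in HG, 2.27 in L5 and 1.56 in NG. The hexosamine count depended on the scaling. With upper quartile scaling 4 of the 9 lay below both, and with spike-in scaling 2 did (22.2%, against 13.1% of all genes). Of 11 Wnt pathway genes 7 lay below both, among them LEF1 at 1.92 FPKM in HG, 3.31 in L5 and 5.19 in NG. Of 20 mitosis genes HG lay between L5 and NG in 14.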
